A study of Mus musculus with 2 samples.

Results

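A set of 10 genes of the circadian clock was followed in RNA of mouse subcutaneous fat. They are the activators Arntl, Clock and Npas2, the repressors Per1, Per2, Per3, Cry1 and Cry2, and Dbp and Tef, which encode transcription factors of the PAR bZIP family. These 10 genes of 43346 annotated genes were found by gene symbol, and all 10 had values in both libraries. The series holds 1 group of 2 libraries, called replicate 1 and replicate 2, from tissue labelled as the subcutaneous fat pad of C57BL/6J mice at 8 weeks of age. According to the labels, males and females were pooled, the animals were littermates, and the health state is unknown. Each library has its own tissue sample, and both samples carry the same donor record. No treatment, genotype, light schedule or hour of tissue collection appears in the labels used here.

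The clock of mammalian cells is a feedback loop of transcription and translation. ARNTL (also called BMAL1) pairs with CLOCK or with its close relative NPAS2, and the pair binds E-box motifs and switches on the Per and Cry genes, whose proteins return to the nucleus and silence the pair. The same E-boxes drive Dbp and Tef, whose proteins bind D-box motifs, and Nr1d1 and Nr1d2, whose REV-ERB proteins repress Arntl through ROR elements. In peripheral tissues of mice kept in light and darkness, Arntl and Npas2 transcripts are known to peak near the end of the night, Nr1d1, Dbp and Per3 by day, Per1 and Per2 around the evening, and Cry1 later in the night. Clock itself cycles weakly. In fat this clock is known to time lipolysis, lipid synthesis and the release of adipokines.

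The motifs of this loop lie close to the transcription starts of several of the 10 genes, and they are printed because the results below are ordered by these arms. Promoter windows from RefSeq on GRCm38.p6, 250 bases before to 50 bases after a start, matched 9 of the 10 genes. Per2 had no entry. The printed stretches run 5′ to 3′ on the strand of the gene, with the motif in capitals. In Per1 (chr11:69098769-69098947, plus strand) the stretch lies before a start that is inside the annotated gene. The capitals mark an E-box and, nearer that start, a D-box.
Per1: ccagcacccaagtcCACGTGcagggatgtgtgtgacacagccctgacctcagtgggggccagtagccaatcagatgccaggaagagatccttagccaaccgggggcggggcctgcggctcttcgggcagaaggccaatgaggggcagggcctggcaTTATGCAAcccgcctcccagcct
In Cry1 (chr10:85185075-85185154, minus strand) they mark an E-box that begins 60 bases before the start.
Cry1: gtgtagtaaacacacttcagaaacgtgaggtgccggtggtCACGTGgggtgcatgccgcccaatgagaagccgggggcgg
In Tef (chr15:81811239-81811318, plus strand) they mark the E-box that begins 138 bases before its downstream start.
Tef: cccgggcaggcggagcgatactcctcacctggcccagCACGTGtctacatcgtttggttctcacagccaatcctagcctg
In Per3 (chr4:151044791-151044890, minus strand) they mark 2 D-boxes.
Per3: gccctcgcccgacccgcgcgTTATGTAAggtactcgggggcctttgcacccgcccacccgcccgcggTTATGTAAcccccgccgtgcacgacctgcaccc
In Arntl (chr7:113207532-113207556, plus strand, in an exon of Arntl-201) they mark the core of a ROR element.
Arntl: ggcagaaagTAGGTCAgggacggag

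The E-box letters searched were CACGTG, which read the same on both strands. They occurred in 3 of the 9 matched genes (Per1, Cry1 and Tef) against 8.09% of all 27025 genes with a window. By window, they occurred in 4 of the 14 windows of these genes and in 7.15% of all 32851. The D-box letters were TTATGTAA, TTATGCAA and TTACGTAA on both strands, and they occurred in 2 of the 9 genes, Per1 and Per3, against 2.10% of all genes. The ROR core TAGGTCA on both strands occurred in 1 of the 9 genes, Arntl, against 2.97% of all genes. No match overlapped another. A match describes these letters in this window, and the libraries hold no measurement of binding.

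The libraries were unlike in the RNA of tissue and cell type markers. Estimated counts came to 54752739 in replicate 1 and 58687668 in replicate 2. With TMM scaling, which assumes that most genes are alike, all 12 white adipocyte markers listed were over 2-fold higher in replicate 2, as were 10.5% of all genes tested. With total count scaling 11 were, and Cfd was then 1.43-fold higher. Led by Cfd, Car3 and Fabp4, these markers had summed levels of 25450 and 62741 TPM (a level per transcript length, relative to all transcripts of the library) in replicates 1 and 2. All 9 markers of glandular epithelium (762 and 15.4 TPM), all 8 of smooth muscle (6074 and 684) and all 9 of uterus (719 and 38.5) were over 2-fold higher in replicate 1 with both scalings. These lists were led by Krt19, Krt8 and Cldn3, by Acta2, Tagln and Actg2, and by Hoxa10, Esr1 and Msx1. Foxl2, of the uterus list, was at 0 in replicate 2. All 7 cell division genes tested were also over 2-fold higher in replicate 1 with TMM and total count scaling, against 12.6% and 22.3% of all tested genes. The part of this difference in the clock values was not tested. In bulk tissue, fewer cells of a type and less RNA per cell cannot be told apart. Each side of any comparison below is 1 library, so no p-value was computed. Intervals named counting intervals cover counting error only.

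By level, the PAR bZIP genes came first and Cry1 last. Dbp averaged 54.9 ± 13.2 TPM (SD, n = 2) and Tef 53.8 ± 3.27, followed by Cry2 at 36.1 ± 9.09 and Per1 at 28.8 ± 17.3. Per3 stood at 17.3 ± 2.98 and Clock at 17.03 ± 2.42, ahead of Per2 at 9.73 ± 1.03, Arntl at 8.59 ± 4.51, Npas2 at 5.35 ± 3.84 and Cry1 at 4.14 ± 2.45. Of the 9 pairs of neighbours in this order, 7 had ranges that overlapped between the genes. The 2 clear steps were from Tef down to Cry2 and from Clock down to Per2. Dbp led in replicate 1 and Tef in replicate 2.

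**Figure D1:**
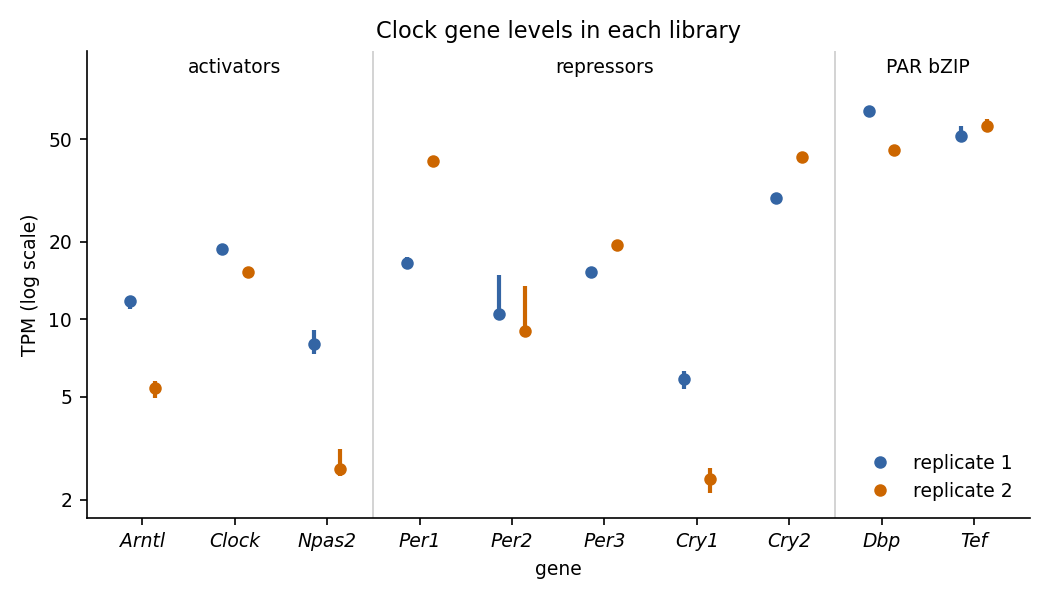
Level of each clock gene in TPM (log axis) in replicate 1 (blue) and replicate 2 (orange), with bars for the interval of TPM that the authors deposited. Arntl, Npas2 and Cry1 are lower in replicate 2 and Per1 and Cry2 are higher, while the intervals of Per2 and Tef overlap.

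Depth was ample for these genes, with 296 to 7593 estimated counts per gene and library. All 20 gene-level counts were whole to within 0.005. The deposited TPM intervals, whose confidence level the sources do not state, lay apart between the libraries for 8 of the 10 genes. For 83.3% of the 13404 genes tested (a scaled count of 100 or more on average) they lay apart as well, so this share is close to that of all genes.

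Ratios between the libraries were taken from counts scaled with TMM, and a gene was called when its whole 95% counting interval lay beyond 2-fold. Per1 and Cry2 were called higher in replicate 2, which is 2 of 10 genes against 10.5% of all tested genes. None of the 10 was called higher in replicate 1, against 12.6% of tested genes. The median log2 ratio was 0.39 over the 10 genes and 0.04 over all tested genes, and the median size of the log2 ratio regardless of sign was 0.68 and 0.55. Scaling by total count moved every log2 ratio by -0.51. Per1 was then the only one of the 10 genes called higher in replicate 2, where 4.4% of all genes were called, and Npas2 the only one called higher in replicate 1, where 22.3% were called. Under that scaling Clock, Per2 and Dbp changed sign and the other 7 genes did not.

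**Figure D2:**
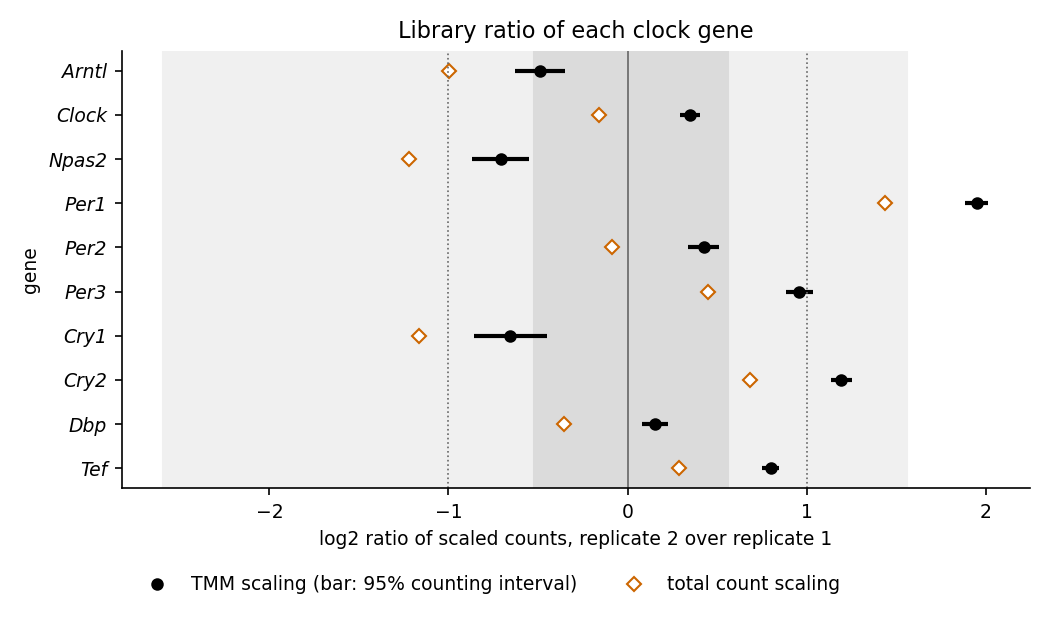
Log2 ratio of replicate 2 over replicate 1 for each clock gene, with TMM scaling (black, bars are 95% counting intervals) and total count scaling (open diamonds), over bands that hold the middle 50% and 90% of tested genes, and dotted lines at 2-fold. Per1 lies beyond 2-fold on the right under both scalings, and Clock, Per2 and Dbp lie on opposite sides of 0 under the 2 scalings.

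Of the activators, Arntl and Npas2 were lower in replicate 2 under every scaling tried, and Clock took the sign of the scaling. Arntl (ENSMUSG00000055116.7, GRCm38 chr7:113207465-113314126), which encodes the partner of CLOCK or NPAS2, had 1192 and 641 counts in replicates 1 and 2, or 11.8 and 5.40 TPM. With TMM scaling it was higher in replicate 1 by 1.40-fold (95% counting interval 1.27 to 1.54), and 1.99-fold with total count scaling. Replicate 1 thus held the higher value on each scale, and Arntl was not called with TMM or total count scaling. On log2(TPM + 0.1) its log2 ratio of replicate 2 over replicate 1 was -1.11, which is beyond 2-fold.

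Npas2 (ENSMUSG00000026077.11, chr1:39193731-39363236), which can stand in for CLOCK, had 1011 and 466 counts, or 8.06 and 2.63 TPM. Replicate 1 exceeded replicate 2 by 1.63-fold (95% counting interval 1.46 to 1.83) with TMM scaling and by 2.33-fold with total count scaling. Part of its TPM in replicate 1 rested on few reads. The short transcript Npas2-203, 484 bases long, took 18.4% of the gene's TPM there with 15 counts, and 0 in replicate 2. The full transcript Npas2-201 alone stood at 6.59 and 2.63 TPM.

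Clock (ENSMUSG00000029238.8, chr5:76209868-76304792), the partner of ARNTL that gives the loop its name, had 5119 and 4914 counts, or 18.7 and 15.3 TPM. With TMM scaling replicate 2 exceeded replicate 1 by 1.27-fold (95% counting interval 1.22 to 1.33), but it was 1.12-fold higher in replicate 1 with total count scaling. Within a library, where scaling cancels, Arntl stood at 0.629 of the TPM of Clock in replicate 1 and 0.352 in replicate 2. Npas2 stood at 0.430 and 0.172 of Clock. Arntl and Npas2 were therefore both lower relative to Clock in replicate 2.

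Among the repressors, Per1 showed the widest gap between libraries. Per1 (ENSMUSG00000020893.13, chr11:69095217-69109960), an early gene of the repressor arm that glucocorticoids also induce, had 2480 and 7217 counts, or 16.6 and 41.0 TPM. Its TMM ratio of replicate 2 over replicate 1 was 3.86 (95% counting interval 3.69 to 4.04), above 97.2% of tested genes, and its total count ratio was 2.71 (2.59 to 2.84). Its place among the 12759 genes with at least 1 TPM in both libraries went from above 45.2% of them in replicate 1 to above 78.0% in replicate 2.

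Per3 (ENSMUSG00000028957.8, chr4:151003652-151044665), the period gene that the core loop can run without, had 2420 and 3544 counts, or 15.2 and 19.4 TPM. Its TMM ratio was 1.94 (95% counting interval 1.85 to 2.05), an interval that included the 2-fold bound. Per3 lies whole within Camta1 on the same strand, over 41014 bases, so strand cannot part their reads, and Camta1 had 755 and 334 counts. Per2 (ENSMUSG00000055866.9, chr1:91415982-91459324), a repressor needed for a lasting rhythm, had nearly equal counts of 2208 and 2233, or 10.45 and 9.0 TPM. Its TMM ratio was 1.34 (1.26 to 1.42) and its total count ratio 0.943 (0.888 to 1.00), which lie on either side of equality. Per1 was 1.59 times the TPM of Per2 in replicate 1 and 4.55 times in replicate 2, a 2.87-fold change (2.66 to 3.09). The period genes thus differed in their balance with each other.

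The cryptochromes parted. Cry1 (ENSMUSG00000020038.9, chr10:85131700-85185064), the stronger repressor that acts late in the cycle, had 618 and 296 counts, or 5.87 and 2.40 TPM. Replicate 1 was the higher library by 1.57-fold (95% counting interval 1.37 to 1.81) with TMM scaling and by 2.24-fold with total count scaling. Cry2 (ENSMUSG00000068742.7, chr2:92403646-92434043), its paralog, had 3982 and 6869 counts, or 29.6 and 42.5 TPM. Its ratio of replicate 2 over replicate 1 was 2.29 (2.20 to 2.38) with TMM scaling and 1.61 with total count scaling, under which it was not called. Cry2 exceeded Cry1 5.05-fold by TPM in replicate 1 and 17.7-fold in replicate 2. That is a 3.51-fold change of their balance (3.04 to 4.05), which no library scaling can alter.

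Of the PAR bZIP genes, Tef was higher in replicate 2 under each scaling and Dbp was not. Dbp (ENSMUSG00000059824.6, chr7:45705088-45710203), a direct output of E-boxes with a deep daily rhythm in many tissues, had 3416 and 2861 counts, or 64.2 and 45.5 TPM. Its TMM ratio was 1.11 (95% counting interval 1.06 to 1.17), whereas it was 1.28-fold higher in replicate 1 with total count scaling. Its end overlaps that of Sphk2 on the opposite strand over 737 bases, and Sphk2 had 4246 and 3397 counts. The libraries are stranded by their labels, but the sources do not say whether the counting used strand.

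Tef (ENSMUSG00000022389.10, chr15:81802421-81826863), a relative of Dbp whose rhythm is shallower in most tissues, had 5792 and 7593 counts, or 51.5 and 56.1 TPM. Its ratio of replicate 2 over replicate 1 was 1.74 (95% counting interval 1.68 to 1.80) with TMM scaling and 1.22 with total count scaling, while its TPM intervals overlapped. Tef stood at 0.802 of the TPM of Dbp in replicate 1 and 1.23 in replicate 2, a 1.54-fold change (1.45 to 1.63). The order of the 2 genes thus turned between the libraries.

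Ratios of genes within a library do not depend on scaling, so the arms of the loop were set against each other there. Each of the 3 activators was paired with each of the 7 other genes. In 17 of the 21 pairs the activator was lower in replicate 2 relative to its partner, by a counting interval that excluded equality. In 2 pairs it was higher, Clock over Cry1 and Clock over Dbp, and in 2 pairs the interval included equality, Arntl over Cry1 and Clock over Per2. The 17 pairs were 6 of Arntl, 4 of Clock and 7 of Npas2. The pairs share genes and are not independent of each other. The share of all gene pairs that differ by this rule was not computed, so the count of 17 has no background to be read against.

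Per1 over Arntl had the TPM ratio 1.41 in replicate 1 and 7.59 in replicate 2, a 5.39-fold change (95% counting interval 4.85 to 6.00). Per1 over Npas2 changed 7.57-fold (6.73 to 8.53), and 6.19-fold with Npas2-201 in place of the whole gene. Cry2 over Arntl changed 3.13-fold (2.82 to 3.47), Per3 over Arntl 2.78-fold (2.50 to 3.11) and Tef over Arntl 2.38-fold (2.15 to 2.63). Dbp over Arntl, from the pair of genes often used to read a clock, was 5.45 in replicate 1 and 8.43 in replicate 2, a 1.55-fold change (1.39 to 1.72). The change was thus several times larger for Per1 than for Dbp. Cry1 over Npas2 changed 1.25-fold (1.05 to 1.495), but 1.02-fold (0.858 to 1.22) with Npas2-201 alone, an interval that includes equality. Cry1 stayed near Arntl, with Arntl at 2.01 and 2.25 times the TPM of Cry1.

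**Figure D3:**
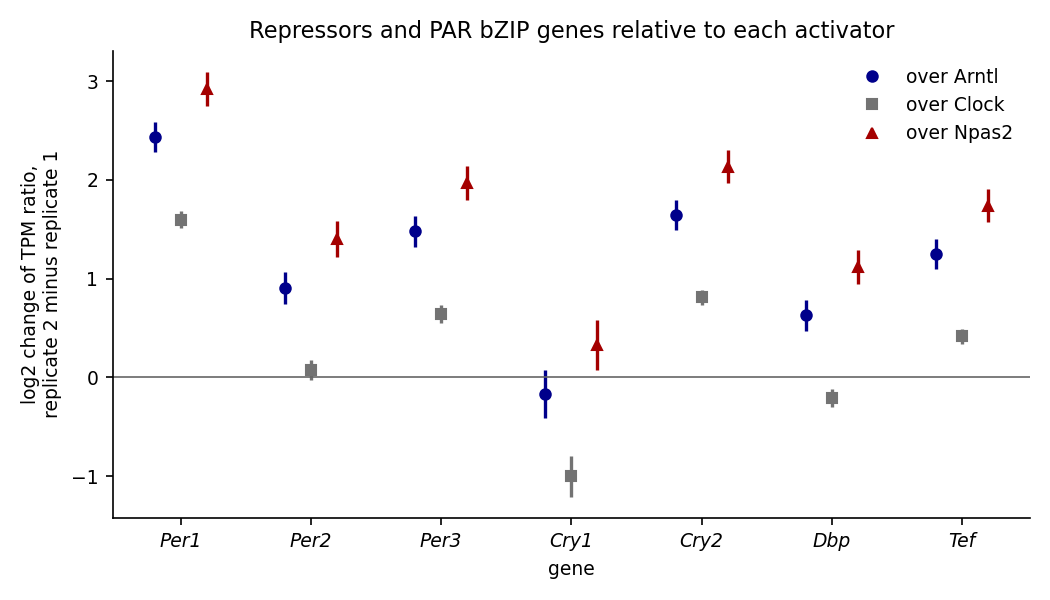
Change between libraries (replicate 2 minus replicate 1, log2) of the TPM of each repressor or PAR bZIP gene over Arntl (circles), Clock (squares) or Npas2 (triangles), with bars for 95% counting intervals. Per1 lies highest against each activator. Cry1 and Dbp lie below 0 against Clock, and Cry1 lies below 0 against Arntl with a bar that includes 0.

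In both libraries the PAR bZIP genes, Cry2 and Per1 stood above Arntl and Npas2, and in replicate 2 the distance was wider. As background, daytime and evening genes are known to run opposite to Arntl and Npas2. A level of one gene over another does not by itself give an hour, because daily means differ between genes, and these files hold no series over time. No phase was therefore assigned to either library, and the part of tissue makeup in these ratios was not tested.

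The other transcription factors of the loop were mixed. Of 11 such genes tested, 1 was called higher in replicate 2 and 1 in replicate 1, against 10.5% and 12.6% of all tested genes. Their median log2 ratio was 0.02 against 0.04 for all tested genes. Nr1d1, which encodes the Arntl repressor REV-ERB alpha, had 10732 and 23374 counts (120 and 221 TPM) and a TMM ratio of replicate 2 over replicate 1 of 2.89 (95% counting interval 2.83 to 2.96). With total count scaling its ratio was 2.03 (1.98 to 2.08) and it was not called. Under that scaling 2 of the 11 were called higher in replicate 1, Rorb and Bhlhe40, and none in replicate 2, with a median of -0.49. Of all tested genes 22.3% and 4.4% were called, and their median was -0.48, so this list was close to all genes. Rorb, which encodes a ROR activator known from brain and retina, had 694 counts in replicate 1 and 7 in replicate 2. Nr1d1 exceeded Arntl 10.2-fold in replicate 1 and 41.0-fold in replicate 2. Bhlhe40 over Arntl went the other way, with TPM ratios of 1.93 and 1.57, a change of 0.816 (0.724 to 0.921). Nr1d2, the relative of Nr1d1, had 1869 and 1259 counts, or 18.9 and 7.87 TPM, with a TMM ratio of 0.894 (0.832 to 0.961). By TPM, Nr1d1 exceeded Nr1d2 6.35-fold in replicate 1 and 28.1-fold in replicate 2. Set against its counts, the TPM of Nr1d2 dropped more in replicate 2 than that of Nr1d1 did. The change of this TPM ratio thus rests partly on the transcript lengths assigned to Nr1d2.

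Bhlhe40, a repressor that competes for E-boxes, had 22.7 and 8.49 TPM, and the D-box repressor Nfil3 had 9.19 and 5.11. Hlf, the third PAR bZIP gene, had 366 and 598 counts, or 2.91 and 6.31 TPM, with a ratio of 2.17 (95% counting interval 1.90 to 2.48). Rora, an activator of Arntl, had 8.37 and 10.2 TPM and a ratio of 2.05 (1.92 to 2.19). The intervals of both ratios included 2.

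Enzymes that modify clock proteins were mostly within the 2-fold bound. None of 10 kinases and ubiquitin enzymes was called with TMM scaling, and the median log2 ratio was -0.05. With total count scaling 1 was called higher in replicate 1, and the median was -0.56 against -0.48 for all tested genes. Of all tested genes, TMM scaling called 10.5% higher in replicate 2 and 12.6% in replicate 1, and total count scaling 4.4% and 22.3%. Csnk1e and Csnk1d, which encode the casein kinases that phosphorylate PER proteins, had 97.9 and 67.1 TPM and 92.9 and 49.6 TPM. Of 8 partners of PER and CRY proteins, Crebbp, a histone acetyltransferase, was the 1 gene called, 2.11-fold higher in replicate 1, and the median log2 ratio of this list was -0.59. Nono (158 and 63.6 TPM), Sfpq (35.1 and 14.9) and Wdr5 (33.5 and 13.5), which bind the PER complex, were lower in replicate 2, within the bound with TMM scaling. With total count scaling 4 of the 8 were called higher in replicate 1, against 22.3% of all tested genes.

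Genes that cycle in many tissues, and genes that glucocorticoids induce, were set beside the clock genes. With TMM scaling, of 8 widely cycling genes 4 were called higher in replicate 2 and 1 in replicate 1, and the median log2 ratio was 1.09. These counts stand beside 10.5% and 12.6% of all tested genes. With total count scaling 3 were called higher in replicate 2 and 2 in replicate 1, with a median of 0.58, as Por at 1.54-fold was no longer called and Usp2 was called higher in replicate 1. Tsc22d3 had 48.7 and 152 TPM, Cdkn1a 20.9 and 78.2, Pdk4 25.9 and 93.0, and Por 216 and 302, while the kinase gene Wee1 had 6.87 and 1.39. Tspan4 had 136 and 184 TPM, with an interval that included 2-fold. Of 7 glucocorticoid-induced genes, Per1 among them, 5 were called higher in replicate 2 and none in replicate 1. The median log2 ratio was 1.95, which is the value of Per1 itself. Per1 is also 1 of the 5 calls, so these figures are not independent of Per1. Besides Per1 and Tsc22d3 these were Zbtb16 (7.44 and 25.9 TPM), Dusp1 (46.1 and 138) and Fkbp5 (6.40 and 10.95). Klf9, at 49.8 and 45.9 TPM, was within the bound. Tsc22d3 stands in both lists. With total count scaling 4 of the 7 were called higher in replicate 2, Per1 among them, and the median was 1.44, again the value of Per1. Of all tested genes, that scaling called 4.4% higher in replicate 2 and 22.3% higher in replicate 1.

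Immediate early genes, which handling of tissue can induce, gave no common direction. Of 7 tested, 1 was called higher in replicate 2, Fos at 7.52 and 13.3 TPM, and none in replicate 1. Of all tested genes 10.5% and 12.6% were called. The median log2 ratio of the list was -0.13. Jun had 60.7 and 27.0 TPM, Junb 31.6 and 25.1, and Egr1 17.96 and 18.46. With total count scaling Fos was not called and Ier2 was the 1 gene called, higher in replicate 1, where 22.3% of all tested genes were called. White adipocyte markers had a median log2 ratio of 2.33 beside these lists, above that of every clock list. Endothelial markers stood at 1.38 and macrophage markers at 0.00. The part of these cell types in the values of Per1 and the output genes was not tested.

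**Figure D4:**
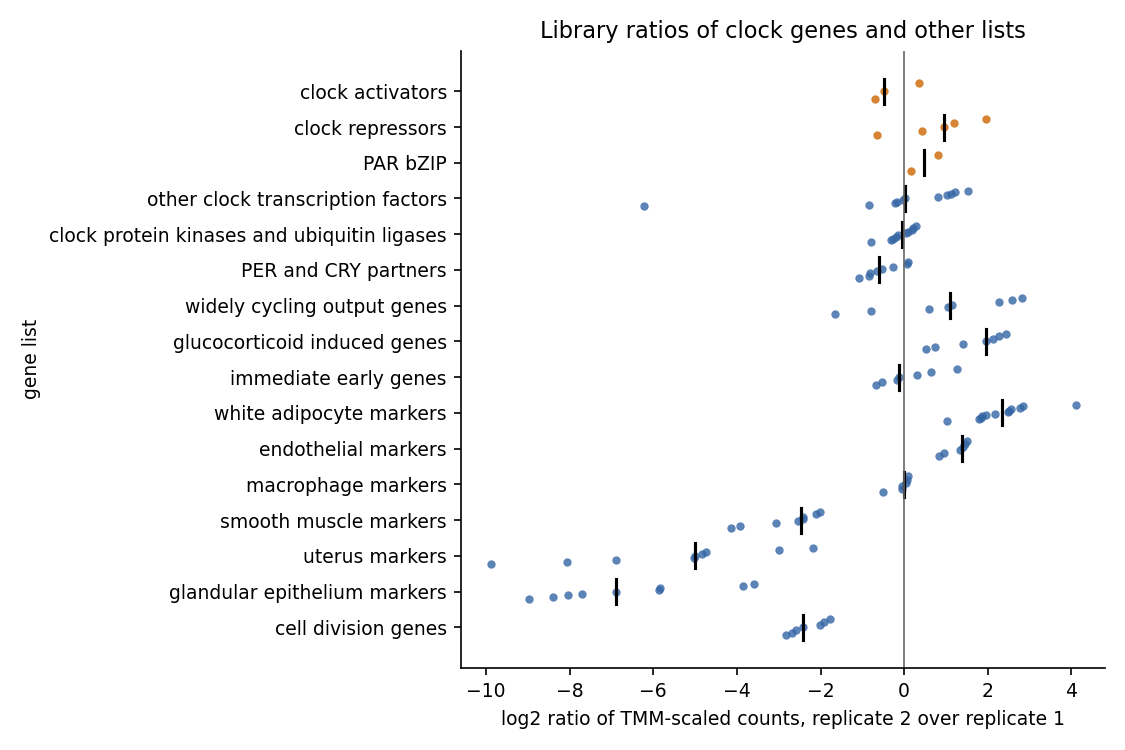
Log2 ratio of TMM-scaled counts, replicate 2 over replicate 1, for each tested gene of each list (points) with the list's median (bar), clock genes in orange. The white adipocyte markers all lie above 1 and the smooth muscle, uterus and epithelium markers all lie below -2. Of the orange points and the other clock transcription factors, Rorb (blue) lies farthest from 0, at -6.22. Foxl2, at 0 in replicate 2, is drawn at its bound.

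The same transcript led in both libraries for each of the 10 genes. Arntl, Clock and Cry1 had a single annotated transcript in these tables, and the other 7 genes had several. In Per1, Per1-201 took 47.5% of the gene's TPM in replicate 1 and 57.4% in replicate 2, and the shorter Per1-202 took 39.1% and 39.2%. Per1-206 took 12.2% in replicate 1 and 0 in replicate 2, where Per1-203 took 3.04%. Posterior means gave Per1-206 13.3% and 3.28%, so the 2 estimates of its share differ.

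Most Per3 signal fell on a form annotated without a coding sequence. Per3-204, a processed transcript of 3663 bases, took 62.8% and 63.9% of the gene's TPM, and the coding Per3-201, of 5999 bases, took 30.9% and 27.0%. In counts the forms were closer, 1240 and 1889 for Per3-204 against 1022 and 1341 for Per3-201. The part of Camta1 reads in these forms was not tested. The libraries had similar Per3 splits while their total differed.

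In Tef, the coding forms together took 66.1% and 72.7%, led by Tef-201 at 40.5% and 41.1%. Forms with a retained intron took 29.5% and 26.2%. Cry2-201 took 89.7% and 94.7% of Cry2. Dbp-201 took 71.8% and 69.9% of Dbp, and the other 4 Dbp transcripts of the tables have no entry in the annotation release used for names. For Per2 the table gave Per2-201 100% in both libraries, whereas posterior means gave 12.6% and 14.5% to Per2-202, of 231 bases, which had 0 expected counts. The wide TPM interval of Per2 in the plot of levels runs from 9.99 to 14.9 in replicate 1 and from 8.60 to 13.5 in replicate 2.

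**Figure D5:**
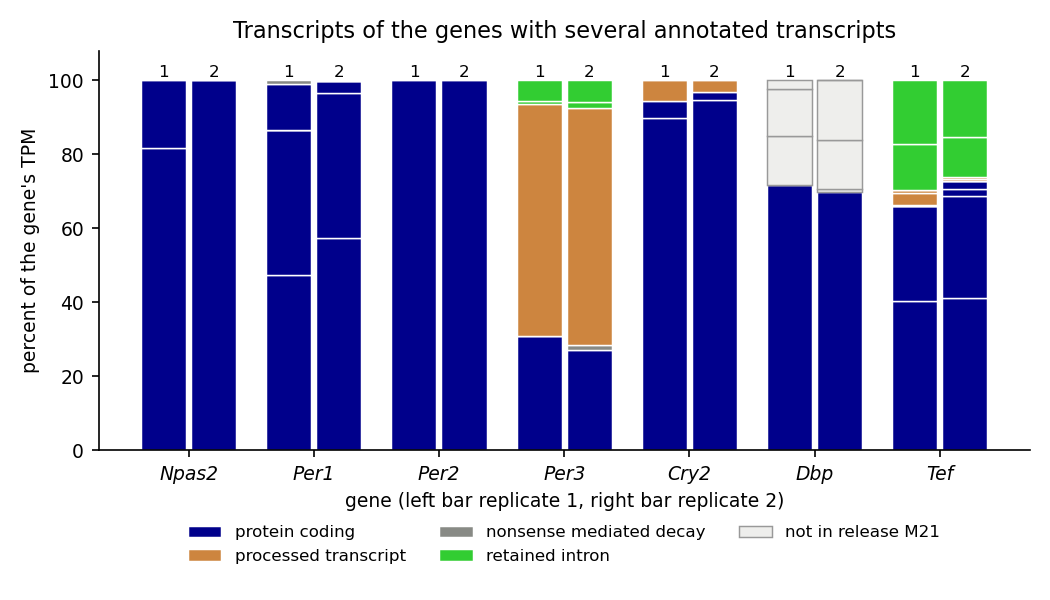
Percent of a gene's TPM taken by each annotated transcript, coloured by transcript type, for the 7 genes with several transcripts, with replicate 1 on the left of each pair. The processed transcript of Per3 exceeds 60% in both libraries and Tef has over 25% in retained-intron forms.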

How the data were processed

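Values came from 2 gene tables and 2 transcript tables. Per the notes deposited beside them, reads were aligned to build mm10 with GENCODE M4, and the sources name no counting program. The authors deposited expected counts (estimated fragments, with shared reads divided by a model), TPM and FPKM, their posterior means, intervals of TPM, and the percent of a gene's TPM per transcript. Expected counts were rounded and 43346 annotated genes were scaled with TMM factors of 1.19 and 0.838 (edgeR 4.0.16, R 4.3.3) over genes with at least 10 summed counts. The 97 spike-ins, 2.10% and 2.02% of counts, stayed out. Ratios carry 95% intervals from the exact Clopper-Pearson method for the split of a pair of counts, and pair changes carry Poisson intervals. A gene at 0 counts was set at a floor of 3 counts. Genes averaging 100 or more scaled counts were tested, and the procedure was tested on simulated data. The simulated libraries shared a profile, apart from a set of changed genes, and held counting noise only. They therefore cannot show how the scaling performs on libraries as unlike as these. DESeq2 1.42.0 size factors, total count, spike-in and other scalings were alternatives. Names and coordinates are from GENCODE M21 (GRCm38, equal to mm10). Tables on mm9 were not used here.

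All 10 clock genes are named, and of each other list the 3 of highest TPM and any clock gene called may be named. Other genes were named after their values were seen. The values of 1 gene that the rule would name are not reported here. The clock genes, the lists, the pairs and the motifs were chosen with earlier results of these data known. The labels call the libraries biological replicates, but do not say that they came from different animals.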

Additional observations from a re-analysis of the deposited data

How the results depend on the processing

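No paired analysis was possible because the series has 1 group. Arntl, Npas2 and Cry1 kept log2 ratios below 0, and Per1, Per3, Cry2 and Tef above 0, under all 8 alternative scales, while Clock, Per2 and Dbp went below 0 under 5 of them. The median log2 ratio of the 10 genes, 0.39 with TMM, was -0.12 with total count, -0.0604 with total count without mitochondrial genes, -0.0648 with spike-ins, -0.23 on log2(TPM + 1) and -0.25 on log2(TPM + 0.1). The number of genes over 2-fold apart was 2 with TMM. It was 1 (Per1) with total count without mitochondrial genes, and 4 with a bound of 1.5-fold (Per1, Per3, Cry2 and Tef). On log2(TPM + 0.1) it was 4, by the ratio alone without an interval. Per1 was then higher and Arntl, Npas2 and Cry1 were lower in replicate 2. The share of all tested genes was not computed for these settings. The median change over the 21 activator pairs, -1.12 on TPM, was -0.83 with 1 added to TPM, and all 21 pairs kept their sign under the 3 alternatives. Leaving out a library left the median level over the 10 genes at 15.9 to 17.4 TPM, but single levels moved by over 1.5 times. From the mean of both libraries, Arntl went from 8.59 to 5.40, Npas2 from 5.35 to 2.63 and Cry1 from 4.14 to 2.40 TPM without replicate 1, and Npas2 to 8.06 and Per1 from 28.8 to 16.6 without replicate 2. The use of Npas2-201 alone was chosen after seeing the data, and each of its 7 pairs kept its direction, though for Cry1 the interval then included equality. Dispersion between animals cannot be had from 1 library a side.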
